A study of Rattus rattus with 8 samples.

Results

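Genes that copy DNA and supply its building blocks were followed in the livers of male WH rats. The diet of 4 rats held 2500 ppm of sodium phenobarbital (NaPB) for 7 days and that of 4 control rats held 0 ppm, and liver RNA of each animal was measured on its own single-colour array. The labels give no age, array batch or liver region, and no transgene or deletion is named in either group. The set holds 41 genes, listed by symbol from knowledge of DNA replication and matched exactly to the array's probe table, out of 16945 genes with a symbol there. All 41 symbols were found.

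DNA replication starts at origins that are loaded in G1 with the MCM helicase and fired in S phase, when polymerases, a sliding clamp and the enzymes of lagging-strand joining take over. E2F transcription factors and cyclin E drive entry into S phase and the expression of many of these genes. Hepatocytes of an adult liver rarely divide, and phenobarbital, which activates the nuclear receptor CAR, is known in rodents to enlarge the liver through both larger and more numerous cells.

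The level of a gene is given below as scaled intensity. This is the deposited linear intensity divided by the 75th percentile of the named features of the same array, with values under 0.03, the floor, set to 0.03, and averaged on the log2 scale over the features of the gene. A scaled intensity of 1 is thus the 75th percentile of an array, and values of different genes are not on a common scale, since probes differ in brightness. Changes are NaPB minus control on the log2 scale with the standard error (SE) of that difference, from 4 rats in each group. They come from limma, with p-values adjusted (Benjamini-Hochberg) across the 10944 genes tested, and a gene passed at an adjusted p under 0.05. The labels do not say that rats came from separate litters or cages. The share of named features at the floor was 31.8% to 34.3% on the NaPB arrays and 33.3% to 34.5% on the control arrays. Over all features, arrays correlated on the log2 scale at 0.977 to 0.984 within the NaPB group, 0.981 to 0.989 within the control group and 0.973 to 0.984 between groups.

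Of the 41 genes, 31 exceeded the floor in 3 or more livers of a group and were tested. 21 rose with NaPB and none fell, where 6.16% of all genes tested rose and 4.29% fell. 10 rose by a log2 change of at least 1, against 1.49% of all genes. In 22 genes every NaPB liver lay above every control liver, a pattern seen in 10.8% of all genes tested. No gene of the set had all NaPB livers below all control livers, against 8.36% of all genes. The median change was 0.72 over the 31 genes and 0.0015 over all genes tested. Mcm5 and Mcm6 entered the test through the NaPB livers alone, so their place in these counts was fixed in direction by the filter. Of the 29 genes above the floor in every liver 19 rose, 8 of them by a log2 change of at least 1. In 20 of the 29 every NaPB liver lay above every control liver. The shares of all genes under this limit were not computed. The labels name liver as the source and no cell type, so more cells in S phase and more RNA per cell cannot be told apart.

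**Figure D1:**
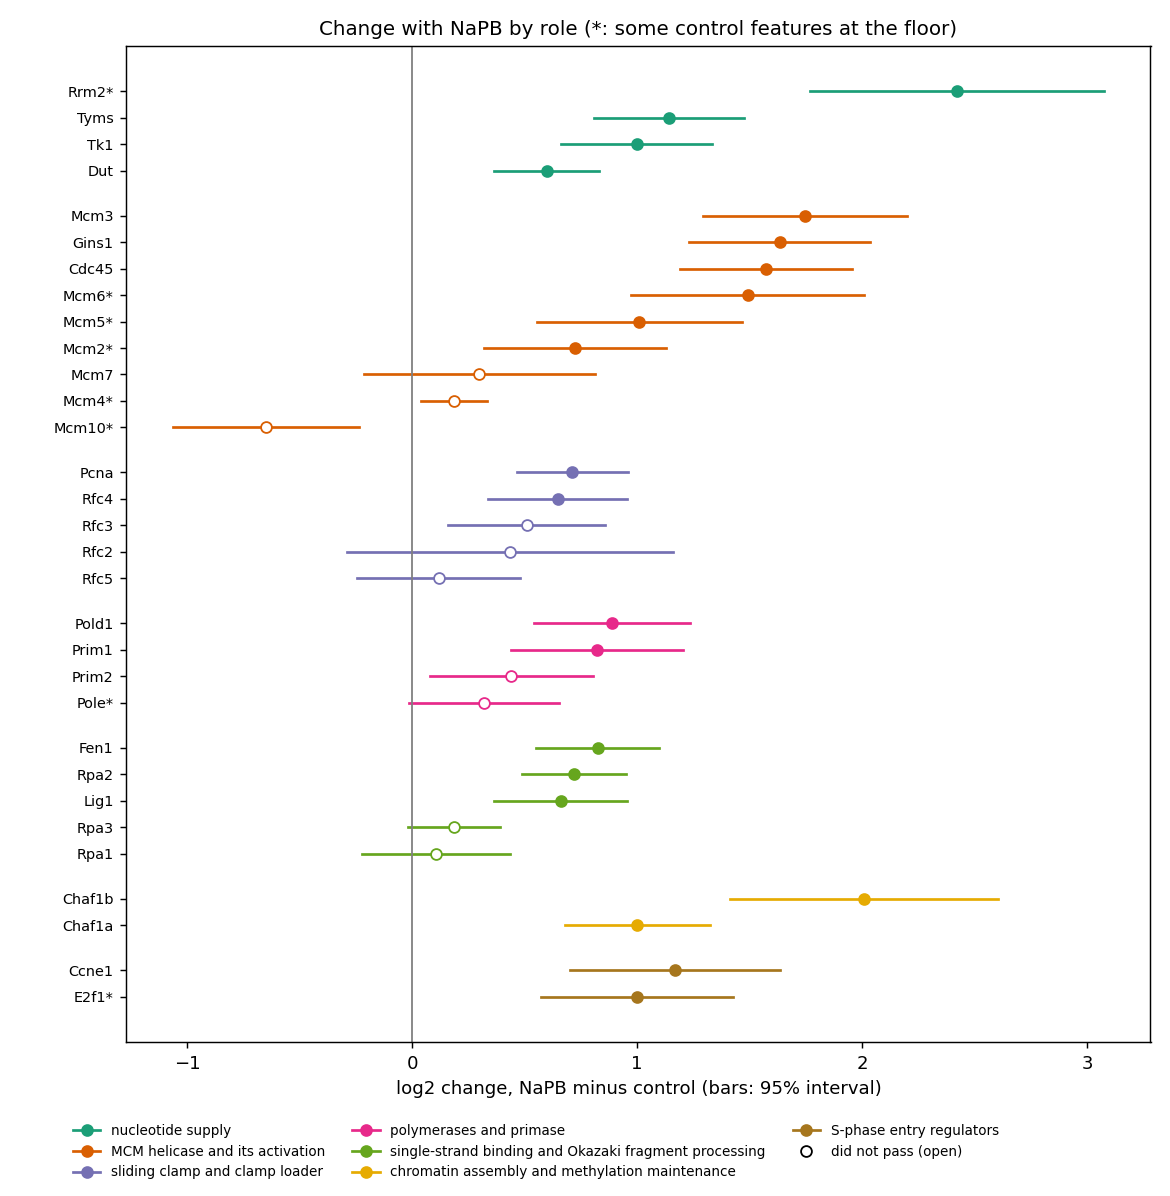
Log2 change of each tested gene, NaPB minus control, with its 95% interval, grouped and coloured by role. Filled points passed at an adjusted p under 0.05, open points did not, and an asterisk marks genes with control features at the floor. 21 of 31 points are filled and all of these lie right of 0, while Mcm10 alone lies left of it.

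The enzymes that make deoxynucleotides rose in all 4 measured cases. Rrm2, the small subunit of ribonucleotide reductase, which turns ribonucleotides into deoxyribonucleotides, had scaled intensities of 0.869, 1.67, 1.01 and 0.596 in the NaPB livers, against 0.151, 0.214, 0.215 and 0.152 in the control livers. Even the lowest NaPB liver stood well above the highest control, and Rrm2 rose by 2.42 ± 0.29 (adjusted p = 0.00165). This mean joins 3 features that differ. On feature 1 Rrm2 was 8.10-fold and on feature 3 8.55-fold higher with NaPB. Feature 2 lay at the floor in all 4 control livers, which made it at least 2.21-fold higher.

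Tyms, thymidylate synthase, which makes the thymidine nucleotide from its uridine form, had 0.263, 0.344, 0.321 and 0.273 in the NaPB livers, against 0.153, 0.116, 0.115 and 0.164 in the control livers. It rose by 1.14 ± 0.15 (adjusted p = 0.00239). Tk1, thymidine kinase, which salvages thymidine, rose to 1.28, 1.58, 1.16 and 1.33 in the NaPB livers, against 0.667, 0.787, 0.732 and 0.514 in the control livers. The groups of both genes were apart, and Tk1 rose by 1.00 ± 0.15 (adjusted p = 0.00452). Dut, the dUTPase that keeps uracil out of DNA, showed a smaller rise of 0.60 ± 0.10 (adjusted p = 0.00899), with 0.578 to 0.740 in the NaPB livers and 0.387 to 0.450 in the control livers. Rrm1, the large reductase subunit, had 1 feature, which lay at the floor in all 8 livers, so the partner of Rrm2 was not measured.

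**Figure D2:**
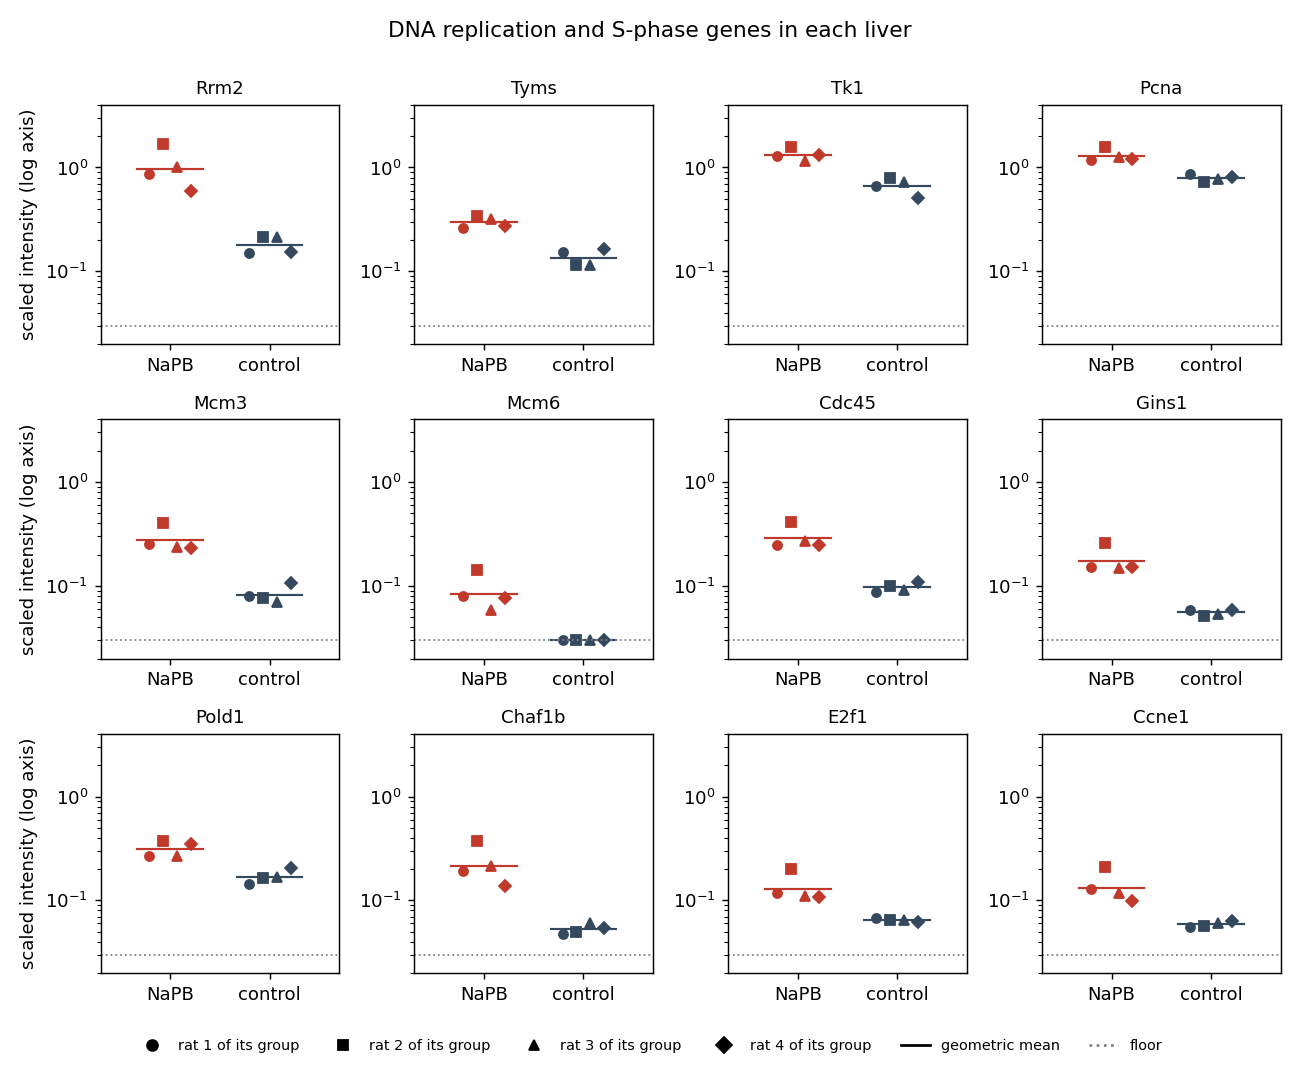
Scaled intensity (log axis) of 12 genes in each liver, NaPB left and control right, with 1 symbol per rat, the geometric mean of each group as a line and the floor of 0.03 dotted. In all 12 genes the NaPB livers lie above the control livers, Mcm6 lies on the floor in every control liver, and NaPB rat 2 (square) is the highest liver of each panel.

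The 4 genes of the set that load the helicase at origins were not detected well enough to compare. Orc1 and Orc6, parts of the origin recognition complex, and Cdc6, which with Cdt1 loads the MCM ring, lay at the floor in all 4 control livers and in the NaPB livers other than replicate 2. In that liver Orc1 reached 0.0435, Cdc6 0.0346 and Orc6 0.0321. Cdt1 lay at the floor in all 8 livers. No statement on origin licensing can be made from these 4 genes at this sensitivity. Orc2, Orc3, Orc4 and Orc5, recognition complex genes outside the set, were above the floor in all 8 livers. They changed by -0.07, 0.28, 0.24 and -0.13, and none passed (adjusted p between 0.106 and 0.807). This does not show that they stayed the same.

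Of the 9 measured genes of the helicase and its activation 6 rose. Mcm3, a subunit of the ring, had 0.254, 0.406, 0.238 and 0.233 in the NaPB livers, against 0.0797, 0.0763, 0.0698 and 0.107 in the control livers. Its change was 1.75 ± 0.20 (adjusted p = 0.00133; 1.13 with a floor of 0.1, still passing). Mcm6 and Mcm5, further subunits of the ring, lay at the floor in all 4 control livers on both features, so their folds are lower bounds. Mcm6 had 0.0803, 0.141, 0.0587 and 0.0763 in the NaPB livers and was at least 2.81-fold higher than in control livers (adjusted p = 0.00509). Mcm5 had 0.0592, 0.0944, 0.0445 and 0.0535 in the NaPB livers and was at least 2.01-fold higher (adjusted p = 0.0163; 2.10 on the log2 scale with a floor of 0.01). With a floor of 0.1 neither gene was tested. For both genes the size of the rise is thus not known, only that all NaPB livers were above the floor. With every control value set to the floor, the p-values of both genes take in no measured spread among control rats.

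Mcm2, another subunit of the ring, was less firm. It had 0.137, 0.198, 0.113 and 0.173 in the NaPB livers, against 0.111, 0.0816, 0.0880 and 0.0895 in the control livers, groups that almost touch, and rose by 0.72 ± 0.18 (adjusted p = 0.0365). On its dimmest feature 1 of 4 NaPB values and 3 of 4 control values lay at the floor. Leaving out 1 liver ended this call for NaPB replicates 1, 2 and 4 and control replicates 2, 3 and 4 (adjusted p between 0.0561 and 0.0973). On its brightest feature alone Mcm2 rose by 0.87 and passed (adjusted p = 0.0104). A floor of 0.1 gave 0.55 and passed (0.00917), while a floor of 0.01 gave 0.75 and did not (0.0599). Mcm4 had 3 unlike features. Its features 1 and 2 lay at the floor in all livers except NaPB replicate 2 on feature 2, while feature 3 had 0.666, 0.609, 0.622 and 0.620 in the NaPB livers, against 0.515, 0.436, 0.409 and 0.450 in the control livers. The mean over features gave 0.19 ± 0.07 and did not pass (adjusted p = 0.106), whereas the brightest feature alone gave 0.48 and passed (adjusted p = 0.0152). Mcm7, the remaining measured ring subunit, had 1.39, 1.36, 1.36 and 0.722 in the NaPB livers, against 0.994, 1.00, 1.10 and 0.737 in the control livers. 3 NaPB livers lay above all controls and replicate 4 below them, and the change of 0.30 did not pass (95% interval -0.21 to 0.81, adjusted p = 0.433; 0.53 without NaPB replicate 4, adjusted p = 0.0592).

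Cdc45 and the GINS complex join the MCM ring to make it an active helicase. Cdc45 had 0.247, 0.415, 0.273 and 0.245 in the NaPB livers, against 0.0883, 0.100, 0.0919 and 0.108 in the control livers, and rose by 1.57 ± 0.17 (adjusted p = 0.000993). Gins1 had 0.151, 0.258, 0.150 and 0.151 in the NaPB livers, against 0.0586, 0.0511, 0.0538 and 0.0592 in the control livers. It rose by 1.63 ± 0.18 (adjusted p = 0.00104; 0.78 with a floor of 0.1, still passing), and its 10 features gave differences between 1.49 and 1.75. Gins2, another subunit of that complex, had 1 feature, at the floor in all livers but NaPB replicate 2, and was not tested.

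Mcm10, which helps to activate the helicase, was the only tested gene of the set with a negative change. Features 1 and 2 lay at the floor in all 8 livers. Feature 3 had 0.0472, 0.0591, 0.0360 and 0.0400 in the NaPB livers, against 0.104, 0.135, 0.212 and 0.0583 in the control livers, and feature 4 had 0.0326, 0.0661, 0.0405 and 0.0361 in the NaPB livers, against 0.0865, 0.102, 0.195 and 0.0574 in the control livers. On both features control replicate 4 lay below NaPB replicate 2, so the groups overlap. The mean over features changed by -0.65 ± 0.18 and did not pass (adjusted p = 0.0558). Under quantile normalization it passed (-0.69, adjusted p = 0.0363), as it did when arrays shared 1 median (-0.68, 0.0414), with array weights (-0.67, 0.0423), without features at the floor everywhere (-1.30, 0.0491) and without control replicate 4 (-0.80, 0.0199). With a floor of 0.1 the change was -0.16 (adjusted p = 0.383).

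**Figure D3:**
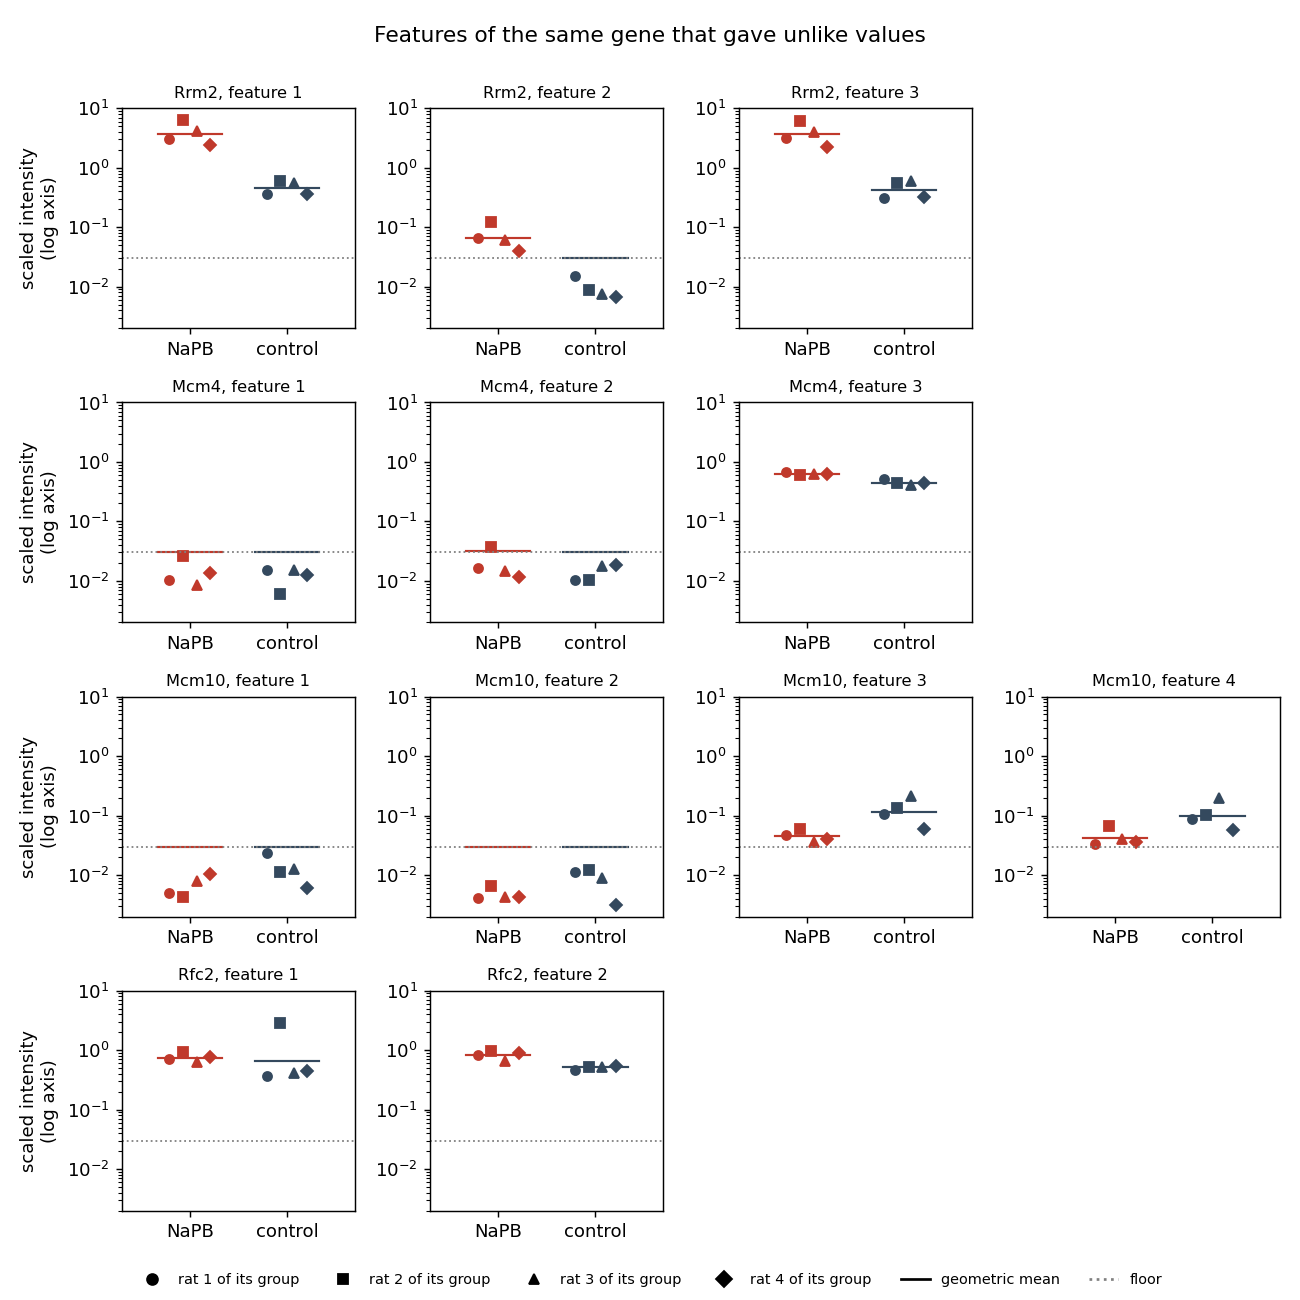
Scaled intensity (log axis) of each feature of Rrm2, Mcm4, Mcm10 and Rfc2 in each liver, NaPB left and control right, with points below the dotted floor of 0.03 at their measured values and the group lines computed after the floor. Features of 1 gene can lie at the floor or well above it, the NaPB livers lie lower than most controls on Mcm10 features 3 and 4, and control rat 2 stands at 2.85 on Rfc2 feature 1.

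Pcna, the sliding clamp that holds polymerases on DNA, had 1.17, 1.58, 1.27 and 1.21 in the NaPB livers, against 0.860, 0.728, 0.780 and 0.816 in the control livers. The groups were apart, and its 2 features gave the same difference of 0.71 (SE 0.11, adjusted p = 0.00509). The loader that places the clamp moved less clearly. Of its 4 subunits in the set Rfc4 rose, by 0.65 ± 0.14 (adjusted p = 0.0204, or 0.0593 without control replicate 2). Rfc4 had 0.178 to 0.265 in the NaPB livers and 0.114 to 0.141 in the control livers. Rfc1, a loader subunit outside the set, was at 0.13 and did not pass (95% interval -0.06 to 0.31, adjusted p = 0.358), with overlapping groups. Rfc3 was at 0.51 ± 0.15 and did not pass (95% interval 0.16 to 0.86, adjusted p = 0.0709), with NaPB replicate 3 at 0.553 and control replicate 4 at 0.555; without control replicate 4 it passed (0.60, adjusted p = 0.0474).

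Rfc2 did not pass, at 0.44 ± 0.32 (adjusted p = 0.420), and 1 spot weighed on this value. Its feature 1 read 2.85 in control replicate 2, against 0.362, 0.414 and 0.447 in the other control livers, while feature 2 read 0.519 in that liver and 0.456, 0.527 and 0.552 in the others. On feature 2 all NaPB livers, at 0.653 to 0.965, lay above all control livers. Without control replicate 2 Rfc2 was at 0.79 and passed (adjusted p = 0.0203). Rfc5 was at 0.12 and did not pass (95% interval -0.24 to 0.48, adjusted p = 0.672), with overlapping groups.

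Among polymerases and primase 2 of 4 measured genes rose. Pold1, the catalytic subunit of polymerase delta, had 0.267, 0.376, 0.266 and 0.353 in the NaPB livers, against 0.142, 0.165, 0.167 and 0.205 in the control livers, and rose by 0.89 ± 0.15 (adjusted p = 0.00906). Prim1, the primase subunit that makes the RNA primers, had 0.717, 0.483, 0.627 and 0.411 in the NaPB livers, against 0.288, 0.293, 0.319 and 0.343 in the control livers. It rose by 0.82 ± 0.17 (adjusted p = 0.0183), and its call was lost without control replicate 1 (0.0524) or 2 (0.0547). Prim2, its partner, was at 0.44 (95% interval 0.08 to 0.80, adjusted p = 0.116), and Pole, the catalytic subunit of polymerase epsilon, at 0.32 (-0.01 to 0.65, adjusted p = 0.205). Neither passed, and the groups of both overlapped. Pola1, of polymerase alpha, and Pole2 lay at the floor in all 8 livers.

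Replication protein A covers single-stranded DNA as a complex of 3 proteins, and its genes differed. Rpa2 had 0.354, 0.364, 0.297 and 0.315 in the NaPB livers, against 0.215, 0.176, 0.198 and 0.219 in the control livers, and rose by 0.72 ± 0.10 (adjusted p = 0.00365) with 10 features between 0.61 and 0.82. Rpa1 did not pass, at 0.11 (95% interval -0.22 to 0.43, adjusted p = 0.677), and neither did Rpa3, at 0.19 (-0.02 to 0.39, adjusted p = 0.226). The difference between Rpa2 and its partners was not tested. Fen1, which trims the flaps of Okazaki fragments, had 1.33, 1.57, 1.17 and 1.13 in the NaPB livers, against 0.684, 0.662, 0.765 and 0.809 in the control livers, and rose by 0.83 ± 0.12 (adjusted p = 0.00420). Lig1, the ligase that seals them, had 0.778 to 1.06 in the NaPB livers and 0.501 to 0.693 in the control livers, a rise of 0.66 ± 0.13 (adjusted p = 0.0157).

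Chromatin assembly factor 1 places histones on new DNA behind the fork. Its subunit gene Chaf1b had 0.191, 0.372, 0.212 and 0.137 in the NaPB livers, against 0.0480, 0.0501, 0.0600 and 0.0546 in the control livers. It rose by 2.01 ± 0.26 (adjusted p = 0.00258; 1.09 with a floor of 0.1, still passing). Chaf1a, the large subunit, had 0.198, 0.291, 0.198 and 0.236 in the NaPB livers, against 0.116, 0.0972, 0.126 and 0.119 in the control livers, and rose by 1.00 ± 0.14 (adjusted p = 0.00368). Uhrf1, which guides DNA methylation to new strands, lay at the floor in all 8 livers.

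Of the 3 regulators of S-phase entry in the set 2 were measured, and these rose. E2f1, a transcription factor of replication genes, had 0.119, 0.201, 0.110 and 0.107 in the NaPB livers, against 0.0673, 0.0648, 0.0646 and 0.0622 in the control livers. It rose by 1.00 ± 0.19 (adjusted p = 0.0132), with feature 2 at the floor in all 4 control livers and the other features at 1.37 and 1.24. Without the filter on low genes E2f1 did not pass (adjusted p = 0.0542). Ccne1, cyclin E1, which activates Cdk2 before S phase, had 0.128, 0.209, 0.118 and 0.0980 in the NaPB livers, against 0.0550, 0.0569, 0.0602 and 0.0640 in the control livers, and rose by 1.17 ± 0.21 (adjusted p = 0.00984). With a floor of 0.1, above which no control value of Ccne1 lay, its change was 0.41 and did not pass (adjusted p = 0.197). Ccne2, cyclin E2, lay at the floor in all 8 livers.

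The 10 genes that were not tested were thus Rrm1, Orc1, Orc6, Cdc6, Cdt1, Gins2, Pola1, Pole2, Uhrf1 and Ccne2. With the floor lowered to 0.01, 39 genes of the set were tested, still without Pole2 and Ccne2. Gins2 then had 0.0223, 0.0314, 0.0216 and 0.0287 in the NaPB livers, against this floor in control replicate 1 and 0.0113, 0.0147 and 0.0153 in the other control livers, and rose by 1.02 ± 0.18 (adjusted p = 0.0144), on 1 feature. The other 7 did not pass at that floor (adjusted p between 0.215 and 0.607). Their 95% intervals were wide, such as -0.01 to 1.35 for Orc1 and -0.52 to 1.26 for Cdc6, and do not show that these genes stayed the same.

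The NaPB livers differed among themselves. NaPB replicate 2 was the highest NaPB liver in 20 of the 21 genes that rose, all but Prim1, where replicate 1 was highest. Among all 674 genes that rose with NaPB, replicate 2 was highest in 33.8%. Its array also had the highest median over all features of any array, 0.101 before scaling, and the fewest named features at the floor, 31.8%. The array of NaPB replicate 4 had the lowest such median of the NaPB arrays, 0.0901, and the most named features at the floor among them, 34.3%. Whether this bears on the order of the NaPB livers was not tested. The median over the 31 tested genes of the log2 level minus the control mean was 1.02 in NaPB replicate 2, and 0.67, 0.64 and 0.63 in replicates 1, 3 and 4, against -0.05 to 0.07 in the control livers. Over all 674 genes that rose, the NaPB livers lay close together, at 0.57 to 0.64. Without NaPB replicate 2 the median change of the set was 0.67 and 20 genes rose, with only Mcm2 lost.

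Genes of mitosis, which follow S phase, showed the same liver as the highest. 20 of 22 measured genes of a list of mitosis rose and none fell, against 6.16% and 4.29% of all genes tested. Many of these lay at or near the floor in control livers, among them Ccnb1, Ccnb2, Ndc80, Nuf2 and Ttk with every control value there. These 5 entered the test through the NaPB livers alone. So did Kif11, Spc25, Prc1 and Ube2c, which rose, and Cenpa, which did not pass. Only 11 of the 22 were above the floor in every liver, and these 11 rose, with a median change of 1.35 (1.66 over all 22). Over all 22 the per-liver median was 1.48, 2.20, 1.77 and 1.24 in NaPB replicates 1 to 4, against -0.08 to 0.04 in the control livers. NaPB replicate 2 was highest in 19 of the 20 mitosis genes that rose, and replicate 4 lowest in 18. In the replication set replicates 3 and 4 were each lowest in 9 of 21 genes. Spc25 of the kinetochore and Cdca3, a regulator of mitotic entry, had the largest mitotic changes, at 3.05 ± 0.25 and 3.02 ± 0.33, the first a lower bound, since 5 of 8 control values of Spc25 were at the floor.

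**Figure D4:**
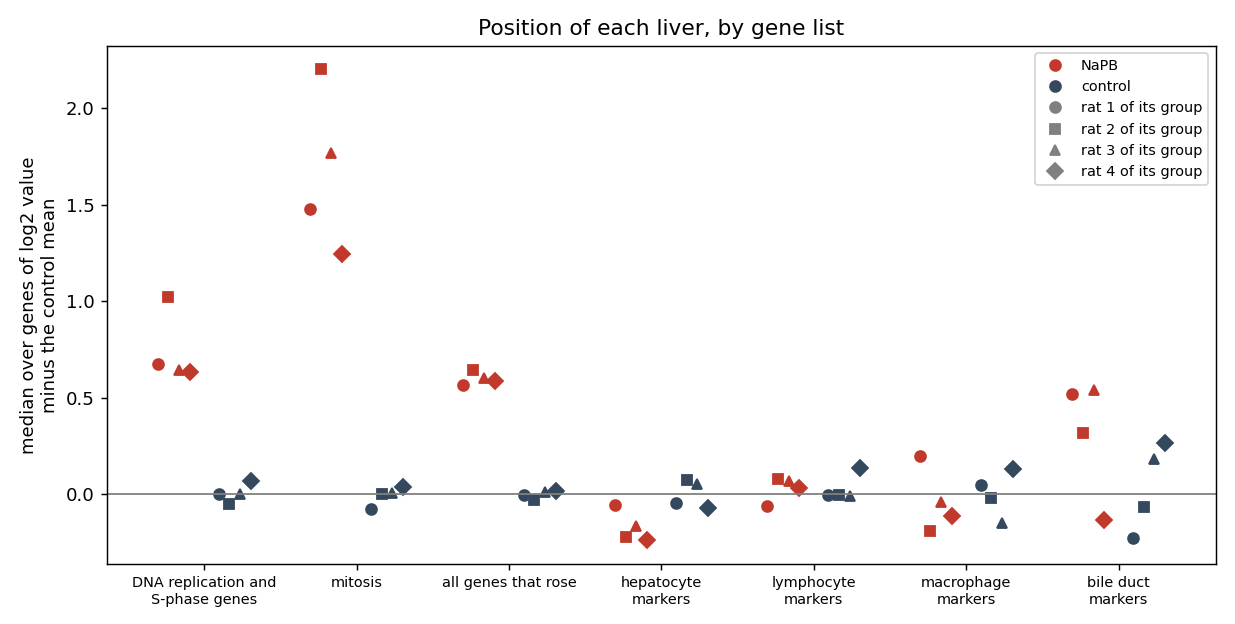
Median over the tested genes of a list of the log2 level minus the control mean, for each liver, NaPB left and control right, with 1 symbol per rat. NaPB rat 2 (square) stands at 1.02 for replication genes and 2.20 for mitosis genes, above the other NaPB livers, while over all genes that rose the 4 NaPB livers lie between 0.57 and 0.64.

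Further genes of S phase were read from 5 lists outside the set. Of 75 measured 13 rose (17.3%) and 2 fell, against 6.16% and 4.29% of all genes tested, with a median change of 0.14. Of the 64 above the floor in every liver 9 rose and 2 fell. Of 25 other replication genes 5 rose, among them Top2a, the topoisomerase that untangles copied DNA, and Dscc1, of an alternative clamp loader, which rose by 1.16 ± 0.21. The change of Top2a could not be sized, since all 12 control and 3 of 12 NaPB feature values lay at the floor (adjusted p = 0.00737). Its p-value takes in no measured spread among control rats. Of 13 other genes of nucleotide supply 3 rose, with Ctps2, a CTP synthase, at 0.86 ± 0.14 and the purine enzyme Paics at 0.81 ± 0.20. The groups of Paics overlapped, with NaPB replicate 4 at 2.88 and control replicate 4 at 3.14 (adjusted p = 0.0355). In chromatin assembly 2 of 11 rose, the histone acetyltransferase Hat1 at 0.55 ± 0.09 and the remodeller Hells at 0.39 ± 0.09. Whether the set and these lists differ was not tested.

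In the E2F and Rb network 1 of 18 rose (5.56%) and 1 fell, a share near that of all genes. Ccna2, cyclin A2 of S phase and mitosis, had 0.218, 0.425, 0.300 and 0.181 in the NaPB livers, against the floor in control replicate 1 and 0.0472, 0.0370 and 0.0392 in the other control livers, a rise of at least 2.81 (SE 0.26, adjusted p = 0.000477). Rb1, which restrains E2F factors, had 0.386, 0.694, 0.401 and 0.449 in the NaPB livers, against 1.33, 1.38, 0.831 and 0.783 in the control livers, and fell by 1.16 ± 0.25 on the log2 scale (adjusted p = 0.0221). Of 8 genes of repair and checkpoint in S phase 2 rose (25%) and 1 fell. Bard1, a partner of Brca1, was at least 1.93-fold higher and passed narrowly (adjusted p = 0.0470). No control liver exceeded the floor on any Bard1 feature, so only the NaPB livers brought this gene into the test. Its p-value, too, takes in no measured spread among control rats. Rad18, which acts at stalled forks, rose by 0.68 ± 0.12, although 3 of its 8 control feature values were at the floor. Ung, which removes uracil from DNA, fell by 0.45 ± 0.11.

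Cell type markers were read beside these changes, because dividing cells other than hepatocytes carry the same genes. Of 12 lymphocyte markers in the probe table, Cd3e, Cd2, Cd79a and Ms4a1 lay at the floor in all 8 livers, and of 7 tested none rose and Cd8a fell by 0.58 ± 0.16. The summed level of this list was 1.10 to 1.16 in the NaPB livers and 1.07 to 1.22 in the control livers. Of 11 macrophage markers none rose and Cd163 fell by 0.57 ± 0.11, with sums of 63.1 to 81.5 in the NaPB livers and 69.1 to 78.9 in the control livers. The per-liver median of lymphocyte markers was 0.08 in NaPB replicate 2 and -0.06 to 0.07 in the other NaPB livers, and that of macrophage markers was -0.19 and -0.11 to 0.20.

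Of 8 tested endothelial markers only Kdr passed. It averaged 9.61 in the NaPB livers and 12.7 in the control livers (geometric means) and fell by 0.41 ± 0.08, while the list had a median change of -0.01. The sum of this list, most of it Kdr, was 14.4 to 16.6 in the NaPB livers and 17.9 to 20.4 in the control livers. Markers of stellate cells fell in 3 of 9 cases, against 4.29% of all genes tested, with Pdgfrb at -1.10 ± 0.11 and Col3a1 at -0.50 ± 0.13. The sum of this list, most of it Col3a1 and Col1a2, was 6.82 to 8.23 in the NaPB livers and 8.58 to 12.7 in the control livers. Of the 5 tested bile duct markers only Epcam passed, with a rise of 1.60 ± 0.11. The sum of this list, most of it Epcam, was 0.942 to 1.10 in the NaPB livers, against 0.433 to 0.555 in the control livers, with Sox9 at the floor in all 8 livers. Hepatocyte markers were strongly present and summed to 1078 to 1243 in the NaPB livers and 1242 to 1360 in the control livers. Of 10 tested 1 fell, Cps1 by 0.63 ± 0.09, and 1 rose, Hnf4a by 0.57 ± 0.10. Hnf4a alone had a positive change, and the list had a median change of -0.23. The part of any cell type in the rise of the replication genes was not tested.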

How the data were processed

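Total RNA of 8 livers was labelled with Cy3 and hybridized to Agilent arrays, 1 per rat. The deposited values are linear spot intensity, scaled by the authors; how, and whether background was subtracted, is not given in the sources used here. Agilent Feature Extraction 10.7 is named in the submitters' processing notes. Rattus rattus is the organism named in the labels. The dose stated in the labels set the groups.

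Of 62976 features 45904 carried 1 gene symbol, 0 several and 17072 none. Scaling, floor and averaging were as described in the report. Genes above the floor, on at least 1 feature, on at least 3 arrays of a group were tested with limma 3.58.1 (lmFit, eBayes, two-sided) in R 4.3.3. The fit was tested on simulated data. Figures used matplotlib 3.10.9 in Python 3.11.15. The number of arrays limits the precision. No slide or scan date was given, so batches were not tested.

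Every gene of the set is named. From each further list of S-phase genes the 2 largest rises and 2 largest falls past the threshold were named, from mitosis the 2 largest rises, and from each cell marker list up to 2 genes past the threshold. Genes at or near the floor, and those that made up most of a sum, were also named. So were Orc2, Orc3, Orc4, Orc5 and Rfc1. The set and the lists were chosen with earlier results of these data known. Replicate numbers belong to different animals: deviations of same-numbered livers from their group means correlated at 0.08, 0.06, -0.13 and -0.07, so the numbers do not pair them. Alternatives were 3 scalings, floors of 0.1 and 0.01, no filter, dim features left out, the brightest feature, a trended robust prior, array weights, the replicate block and leaving out each array. A planned count of promoter motifs was not run, since no sequences were used.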

Additional observations from a re-analysis of the deposited data

Results flagged for a closer look

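In 5 of 60 groups of 4 livers 1 liver stood far from the other 3 of its group, where chance gives about 1 in 20. 4 of these were NaPB replicate 2: Mcm3 at 0.406 (next NaPB liver 0.254), Gins1 at 0.258 (next 0.151), E2f1 at 0.201 (next 0.119) and Mcm10 at 0.0433 (next 0.0343). The other was NaPB replicate 4, with Mcm7 at 0.722 below the next NaPB liver at 1.36.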

How the results depend on the processing

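Between 16 and 23 genes of the set passed under the 19 alternatives, and their median change lay between 0.60 and 0.78. Of the 21 genes that rose, 14 passed in every alternative that tested them. Calls of single genes were lost in 21 of 586 combinations of gene and alternative, gained in 12 and changed sign in 2, both for genes that did not pass: leaving out 1 liver, Rfc5 ranged between -0.011 (without control replicate 1) and 0.22 and Rpa1 between -0.025 (without NaPB replicate 2) and 0.20. Counts over genes above the floor in every liver, such as 19 of 29 in the set and 11 of 11 in mitosis (20 of 22 without this limit), were added after seeing the data. No share of all genes was computed under this limit, so these counts have no like share beside them. Without the filter on low genes, 16945 genes were tested, and 739 genes changed over the whole array and 16 of the set. Mcm2, Mcm5, Lig1, Prim1, Rfc4 and E2f1 lost their calls without this filter, and Mcm4 was gained (adjusted p = 0.0301). With the replicate number as a block, 583 genes changed and 17 of the set, Mcm2, Lig1, Prim1 and Rfc4 being lost; 2 of 8 livers correlated best with the same number in the other group. Leaving out 1 liver gave 625 to 980 changed genes (698 without control replicate 1, 625 without control replicate 2) and 19 to 22 of the set. The share of changed genes that were higher was 58.9% with the scaling used, 50.2% after quantile normalization and 41.3% with arrays at the same median, where 21 genes of the set were higher under all 3. Low signal limits the sizes: 12 genes of the set had every control value at the floor.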
